A study of Rattus norvegicus with 4 samples.

Results

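The genes described here encode the parts of the inflammasome, a protein platform that macrophages build in the cytosol when they sense infection or damage. They were chosen by name and number 10: the sensors Nlrp3, Nlrc4 and Aim2, the NLRP3 partner kinase Nek7, the adaptor Pycard, the inflammatory caspases Casp1 and Casp4, the pore gene Gsdmd, and the membrane channel genes P2rx7 and Panx1. A probe belonged to one of them when its accession mapped to that gene's symbol in RefSeq. By this rule 9 probes gave 7 of the 10 genes, out of 16581 genes measured in all. No probe matched Gsdmd, Nlrc4 or Aim2, and these were not analysed here.

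The RNA came from NR8383 cells, a line established from the lung lavage of a normal rat, after 4 h with the carbon nanotube NRCWE042, whose surface carries carboxyl groups, at 6.8 cm2 per cm2. Per the labels, cells had gone through 20 passages and were seeded for 48 h. The 4 samples form 1 group of biological replicates, each hybridized to its own one-colour array. Unexposed cells belong to the study's design but were not analysed here, so no value below measures what the nanotubes did.

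In mouse and human cells, NLRP3 responds to many kinds of membrane and organelle stress, among them potassium loss through P2X7 and damage to lysosomes by particles that a cell has engulfed. NEK7 binds NLRP3 and helps it assemble, PYCARD (also called ASC) joins the sensor to caspase-1, and caspase-1 cleaves the precursors of interleukin-1β and interleukin-18 together with gasdermin D, which then perforates the plasma membrane. Mouse caspase-11, the counterpart of rat Casp4, is activated by bacterial lipopolysaccharide inside the cell and cleaves gasdermin D without caspase-1. The measurements below are of messenger RNA and carry no information on whether these proteins were cleaved or assembled.

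A level here is the log2 of a probe's processed signal minus the 75th percentile of all sample probes on the same array. That percentile was a signal of 128, 131, 98.5 and 49.0 on replicates 1 to 4, so replicate 4 was the dimmest array, and 38.8%, 36.8%, 35.2% and 31.1% of sample probes were well above background. Detected means that the software marked 1 or more probes of the gene as well above background on each of the 4 arrays. Of 11 measured macrophage markers 9 were detected, including Cd68, Csf1r, Spi1 and Lyz2, while Marco and Adgre1 were on no array. Of 39 measured markers of lung epithelium, fibroblasts, neutrophils, lymphocytes and endothelium 12 were detected, among them Vwf (mean level 5.50) and Dcn (3.41). These were 1 of 8 for epithelium, 1 of 7 for fibroblasts and 1 of 7 for neutrophils. T and NK cells had 4 of 8, B cells 2 of 4 and endothelium 3 of 5. Of all measured genes, 44.4% were detected. Replicate 3 has an area of low signal that covers 3.59% of its sample spots, and replicate 4 a smaller one of 0.518%. None of the 9 inflammasome probes lies in either area. Spots around the brightest Nlrp3 probe still differed from the other arrays, by a median of 0.18 log2 units on replicate 3.

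The sensor Nlrp3, its partner Nek7, the adaptor Pycard and both caspases were detected on every array, whereas P2rx7 and Panx1 were detected on none. The count of 5 in 7 measured genes (71.4%) stands beside 44.4% of all 16581 measured genes. With 7 genes, the difference between these shares amounts to about 2 genes. The genes were chosen with earlier results of these data known, so the shares are a description only. All 3 Nlrp3 probes were well above background on each array, so its detection does not rest on 1 probe.

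**Figure D1:**
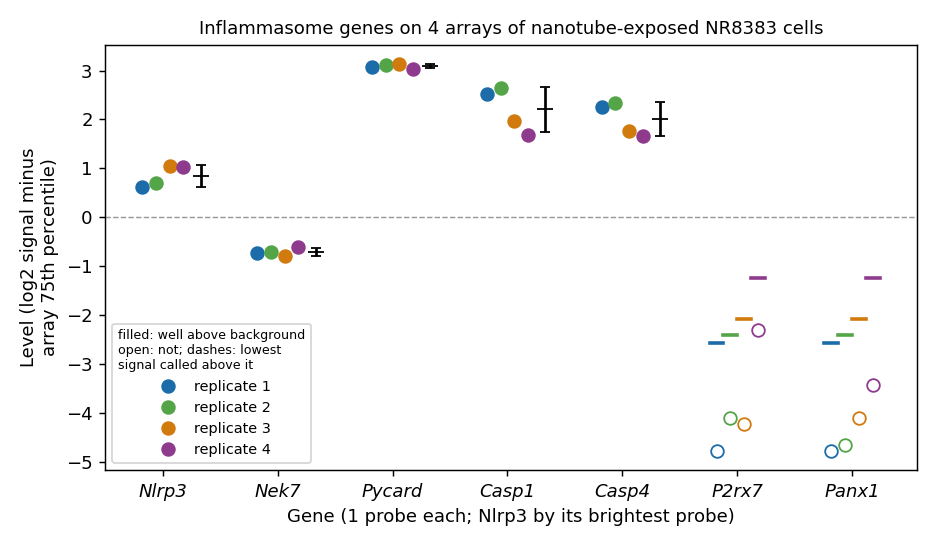
Level of each measured inflammasome gene (log2 signal minus the array's 75th percentile, vertical axis) on the 4 replicate arrays, with black bars for the mean ± SD of the 5 detected genes. Filled points were well above background and open points were not. The short dashes above P2rx7 and Panx1 mark each array's lowest signal called well above background, and all open points lie below their dash. Levels of different genes come from different probes and give no order between genes.

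Promoter sequences were taken from RefSeq (GRCr8), from 250 bases before to 50 bases after the table's start site, for the 7 of 10 genes that the table holds. These include Aim2, which no probe matched. No window was available for Casp4, Gsdmd or Nlrc4. Shown 5′ to 3′ are the windows of the sensor Nlrp3, of Casp1 and Pycard, and of P2rx7, which was not detected. With the percentile scaling used here, Casp1 and Pycard varied most and least between cultures among the 5 detected genes. Capitals mark motif matches. The Nlrp3 window is chr10:44827848-44828147 on the plus strand, Casp1 is chr8:10872580-10872879 on the plus strand, Pycard is chr1:192033370-192033669 on the minus strand and P2rx7 is chr12:39594873-39595172 on the minus strand. The table's start site lies 1799 bases inside the annotated Nlrp3 gene and 126492 bases inside the annotated Casp1 gene, measured from the 5′ end.
Nlrp3: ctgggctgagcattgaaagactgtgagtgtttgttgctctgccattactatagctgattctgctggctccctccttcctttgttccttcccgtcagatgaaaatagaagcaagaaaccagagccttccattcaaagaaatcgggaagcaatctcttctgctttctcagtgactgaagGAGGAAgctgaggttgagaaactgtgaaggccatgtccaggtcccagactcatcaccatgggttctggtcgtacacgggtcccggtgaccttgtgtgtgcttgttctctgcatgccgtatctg
Casp1: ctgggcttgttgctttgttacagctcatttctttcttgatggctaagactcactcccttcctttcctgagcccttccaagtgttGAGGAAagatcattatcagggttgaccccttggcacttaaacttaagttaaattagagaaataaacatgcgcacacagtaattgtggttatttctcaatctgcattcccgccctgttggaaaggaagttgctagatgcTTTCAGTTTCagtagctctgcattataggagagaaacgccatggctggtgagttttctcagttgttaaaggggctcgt
Pycard: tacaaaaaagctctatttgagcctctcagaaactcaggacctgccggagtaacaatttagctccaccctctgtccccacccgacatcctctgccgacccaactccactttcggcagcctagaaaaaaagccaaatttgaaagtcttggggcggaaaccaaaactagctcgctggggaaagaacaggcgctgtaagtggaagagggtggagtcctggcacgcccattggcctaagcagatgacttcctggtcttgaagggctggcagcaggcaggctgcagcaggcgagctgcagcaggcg
P2rx7: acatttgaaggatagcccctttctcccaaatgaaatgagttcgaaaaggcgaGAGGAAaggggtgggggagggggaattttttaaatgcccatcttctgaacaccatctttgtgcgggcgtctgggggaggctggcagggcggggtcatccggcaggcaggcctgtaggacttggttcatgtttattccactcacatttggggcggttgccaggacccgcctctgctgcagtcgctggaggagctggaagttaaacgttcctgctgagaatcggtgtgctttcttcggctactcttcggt

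Searched on both strands were the core of the macrophage factor PU.1 (GAGGAA), the interferon-stimulated response element, AP-1 (TGANTCA), the TATA box (TATAAA) and the NF-kB consensus. The PU.1 core begins 73 bases before the start site in Nlrp3, 166 before it in Casp1 and 198 before it in P2rx7. Aim2 also holds it, and the windows of Pycard, Nek7 and Panx1 hold no match to any of the 5 motifs. The core is common, being present in 27.6% of all 33469 promoter windows. The Casp1 window also holds the interferon element on the opposite strand (TTTCAGTTTC, beginning 28 bases before the start site), which 3.92% of windows hold. No window of these 7 genes, which do not include Casp4, matched AP-1, TATA or NF-kB. Of all windows, 7.33%, 14.2% and 4.18% hold them. No 2 matches overlap, and a match is a description of letters and not a bound site. The window of Nek7 has 65.0% G and C and that of Casp1 43.3%, against a median of 51.7% over all windows.

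Nlrp3 encodes the sensor. Its brightest probe (A_44_P1109874, accession XM_006246453) read levels of 0.62, 0.70, 1.05 and 1.03 on replicates 1 to 4, from signals of 196, 213, 204 and 100.1. The mean was 0.85 ± 0.22 (SD, n = 4), with replicates 3 and 4 above replicates 1 and 2 and a range of 0.43 log2 units. The other 2 probes, both for NM_001191642, did not share this profile. Probe A_44_P281733 read -1.08, -1.46, -1.07 and -1.14, lowest on replicate 2. Probe A_44_P1109879 read -1.12, -1.48, -1.74 and -0.83, lowest on replicate 3 and highest on replicate 4.

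These dimmer probes lie closer to background, with signals of 22.3 to 60.3 and 27.7 to 58.8. The lowest signal called well above background was 20.8 to 24.6 across the arrays. The scanner software's own error was 10.4% to 11.2% of the signal for the brightest probe, 13.3% to 21.5% for A_44_P281733 and 13.1% to 20.9% for A_44_P1109879. When the 3 probes were averaged, the deviations of Nlrp3 from its own mean became 0.01, -0.20, -0.04 and 0.23 on replicates 1 to 4, against -0.23, -0.15, 0.20 and 0.18 for the brightest probe alone. The direction on replicates 1 and 3 thus depends on the probe. Spots around the brightest probe differed from the other arrays by a median of -0.11, -0.10, 0.18 and 0.08 on replicates 1 to 4. These have the same signs as that probe's deviations. Around the other 2 probes such medians stayed between -0.08 and 0.08. The part of array position in the Nlrp3 profile was not tested. The accessions differ between the probes, and whether they read different transcripts was not tested.

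**Figure D2:**
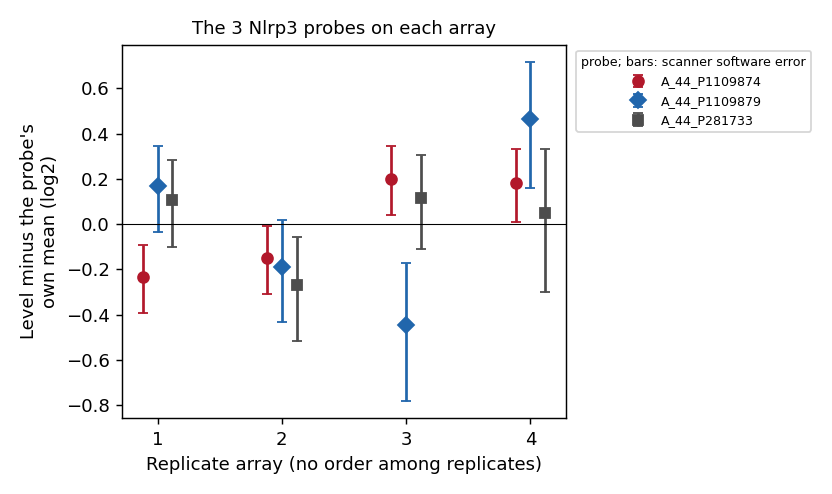
Level of each of the 3 Nlrp3 probes minus that probe's own mean (log2, vertical axis) on the 4 replicate arrays, with bars for the error that the scanner software gives each spot. On replicate 3 the brightest probe lies 0.20 above its mean and A_44_P1109879 lies 0.44 below its mean.

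Nek7, the kinase that binds NLRP3, read -0.73, -0.70, -0.80 and -0.61 on replicates 1 to 4 (mean -0.71 ± 0.08, SD, n = 4). The arrays differed by at most 0.19 log2 units. Its signals of 76.9, 80.7, 56.6 and 32.0 came nearest to background among these brightest probes of the 5 detected inflammasome genes, and the software error was 12.2% to 16.8%.

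Pycard, the adaptor, read 3.08, 3.12, 3.13 and 3.04 (mean 3.09 ± 0.04, SD, n = 4), from signals of 1080, 1140, 861 and 403. The 4 cultures differed by 1.06-fold at most on this scale. Only 1.75% of the 7363 detected genes had a smaller SD over the 4 arrays. Its SD was 0.09 with quantile scaling and 0.10 with the percentile taken over detected probes. It was 0.68 with spike-in scaling and 0.38 with normexp background correction. Under normexp Pycard deviated from its own mean by 0.30, 0.34, -0.21 and -0.43 on replicates 1 to 4. Normexp started here from the raw median signal with an offset of 50, so it also left out the software's spatial correction. The software's background-subtracted signal of Pycard was 1218, 1271, 724 and 389 on replicates 1 to 4. The part of each processing step in the small SD was not tested.

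Casp1, the protease that matures interleukin-1β, had the widest spread of the 5. It read 2.53 and 2.64 on replicates 1 and 2, then 1.97 and 1.69 on replicates 3 and 4 (mean 2.21 ± 0.45, SD, n = 4). The highest and lowest cultures differed by 0.95 log2 units, or 1.93-fold, and 83.3% of detected genes had a smaller SD. The 95% interval of the mean reaches 0.72 log2 units each way.

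Casp4, the lipopolysaccharide-responsive caspase (Casp11 among its RefSeq synonyms), read 2.26, 2.33, 1.76 and 1.67 on replicates 1 to 4 (mean 2.01 ± 0.34, SD, n = 4). Like Casp1, it was higher on replicates 1 and 2 than on replicates 3 and 4, here by 1.58-fold between extremes. The difference between the 2 caspases within an array, in which 1 scaling factor per array cancels, was 0.27, 0.31, 0.21 and 0.02. This difference had an SD of 0.13, below the SD of either gene. RefSeq places both genes on chromosome 8. Whether their probes also capture each other's transcripts was not tested. The profile was not particular to these caspases. The galectin gene Lgals8 read 2.57, 2.66, 2.09 and 1.68 on replicates 1 to 4, and Btk was also lower on replicates 3 and 4. Other genes, among them Ninj1 and Rela, were higher on those replicates.

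How far the caspases' profile differed from that of Pycard depended on how the raw signal was corrected. Normexp replaced the software's spatial correction as well as its background correction, and the 2 were not separated. Pycard minus Casp1 was 0.55, 0.48, 1.16 and 1.35 on replicates 1 to 4, a range of 1.82-fold that 1 scaling factor per array leaves as it is. The range was 1.73-fold with quantile scaling and 1.24-fold with normexp. Nlrp3 (brightest probe) minus Casp1 was -1.91, -1.94, -0.91 and -0.66, with a range of 1.28 log2 units, or 2.43-fold, and 2.00-fold with normexp. Pycard minus Nek7, for comparison, was 3.81, 3.82, 3.93 and 3.65, with a range of 0.27, and 1.06 with normexp. Under normexp Pycard thus lay nearer to Casp1 than to Nek7. These differences are read across arrays and not as a ratio of 2 transcripts.

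Spots of the same probe on 1 array give the technical error beside which these spreads can be read. For probes with 10 spots and a signal of 256 to 4096, the median SD between spots was 0.06 to 0.09 log2 units on the 4 arrays. It was 0.12 to 0.13 for signals of 64 to 256 and 0.16 to 0.23 for signals of 16 to 64. The SDs of Casp1 and Casp4 between cultures exceeded the spot SD at either of the 2 higher bands, where their signals of 158 to 815 and 156 to 659 lie. The SD of Pycard was below it, and that of Nek7 was below the spot SD of both lower bands. Hybridization, labelling and extraction error are not in the spot SD.

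**Figure D3:**
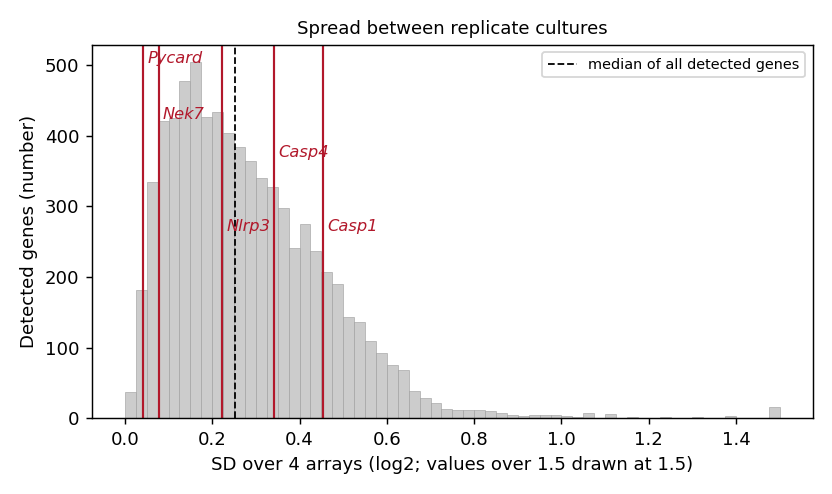
Histogram of the SD over the 4 arrays (log2, horizontal axis) for the 7363 detected genes, with red lines at the 5 detected inflammasome genes and a dashed line at the median of 0.25. Pycard (0.04), Nek7 (0.08) and Nlrp3 (0.22) lie left of the median, and Casp4 (0.34) and Casp1 (0.45) right of it.

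The median SD of the 5 detected genes was 0.22, beside 0.25 for all 7363 detected genes, and 3 of the 5 lay below that value. With spike-in scaling the median of the 5 became 0.68. A deviation of over 1 log2 unit from the other 3 arrays occurred on some array in 8.88% of all detected genes. None of the 5 reached it on any array.

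The median deviation of the 5 genes from their own means was -0.01, 0.03, -0.09 and -0.05 on replicates 1 to 4, against -0.07, -0.07, 0.06 and 0.10 over all detected genes. This near-zero median joins opposed profiles, since Casp1 and Casp4 were low on replicates 3 and 4, where the brightest Nlrp3 probe was high. With its 3 probes averaged, Nlrp3 deviated by -0.04 on replicate 3 and 0.23 on replicate 4. The caspases also ran against most genes there: 61.9% of detected genes were above their own mean on replicate 3 and 59.6% on replicate 4. Spike-in scaling shifted all genes together, with a median deviation over all detected genes of 0.38, 0.50, -0.10 and -0.75. Relative to the median gene, Casp1 deviated by 0.39, 0.50, -0.30 and -0.62 and Nlrp3 by -0.16, -0.08, 0.14 and 0.08, with percentile or spike-in scaling alike. With normexp these became 0.30, 0.34, -0.17 and -0.48 for Casp1, and -0.09, -0.05, 0.00 and 0.12 for Nlrp3.

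**Figure D4:**
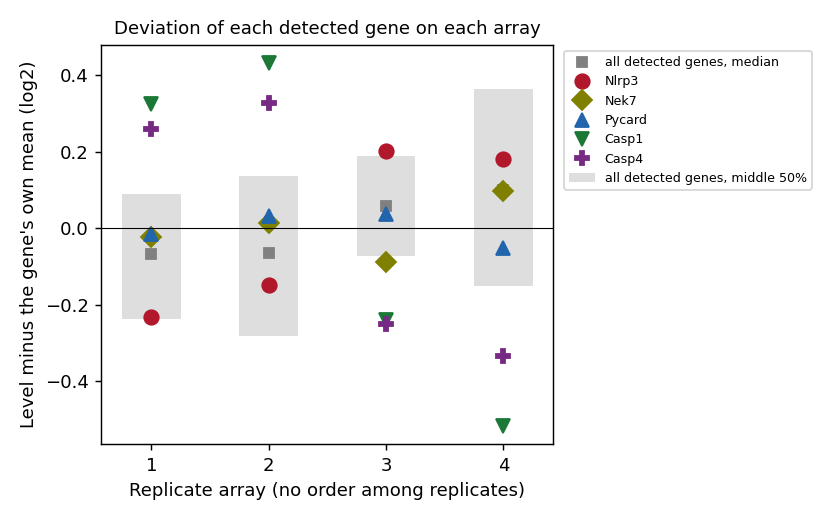
Deviation of the level from the gene's own mean (log2, vertical axis) for the 5 detected inflammasome genes on each replicate, with grey bars for the middle 50% of all detected genes and grey squares for their median. Casp1 and Casp4 lie above the grey bars on replicates 1 and 2 and below them on replicates 3 and 4.

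P2rx7 encodes the ATP-gated cation channel through which extracellular ATP drives potassium out of the cell. Its probe gave signals of 4.68, 7.66, 5.27 and 9.93 on replicates 1 to 4, and none was well above background. The software's looser mark of a positive and significant signal was given on replicates 2 and 4. Panx1 encodes the pannexin channel, which releases ATP. Its probe gave signals of 4.70, 5.21, 5.71 and 4.58, with neither mark on any array. The lowest signal called well above background corresponds to a level of -2.56, -2.41, -2.09 and -1.24 on the 4 arrays, and both genes lay below it on each. Each of them has 1 probe, and such a reading does not show that a transcript was absent. Among relatives of these channels, P2rx4 was detected at 0.48 ± 0.06 (SD, n = 4), while P2rx1 and Panx2 were on no array.

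The genes around these in the pathway were mostly detected, with the other sensors as the exception. Over 7 role lists, 51 of 68 measured genes (75%) were detected, beside 44.4% of all measured genes. The lists were chosen with earlier results of these data known, so these shares are a description only. Of 8 other sensors 2 were detected: Nod1 (4.96 ± 0.40), a sensor of bacterial cell wall fragments, and Nlrx1 (4.60 ± 0.50), a mitochondrial member of the family (SD, n = 4 each). Nlrp1a was well above background on 3 arrays, and Mefv, Nlrp6, Nlrp10, Nlrp12 and Zbp1 on none.

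**Figure D5:**
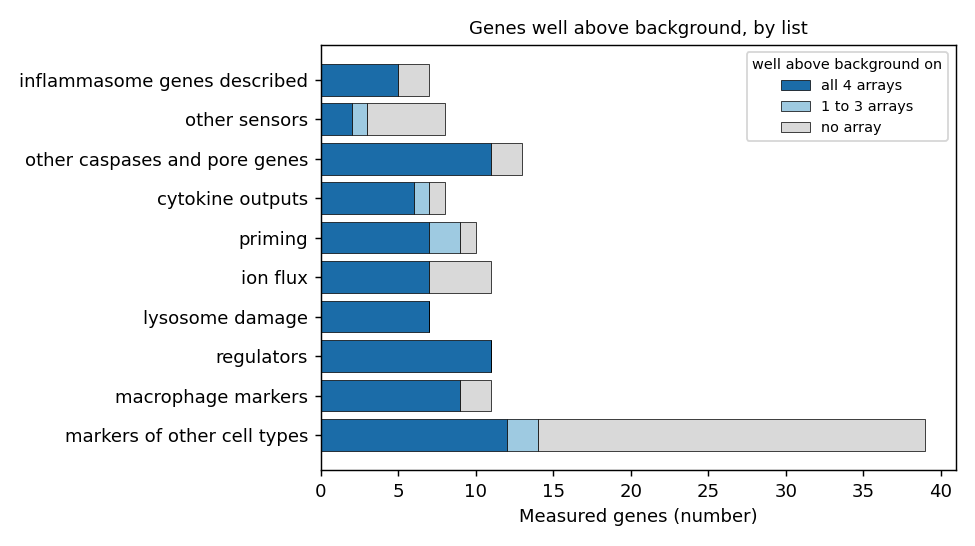
Number of measured genes (horizontal axis) in each list that were well above background on all 4 arrays, on 1 to 3 arrays or on no array. The inflammasome genes described have 5 of 7 on all arrays, the other sensors 2 of 8, and the markers of other cell types 12 of 39.

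The cytokine genes whose products caspase-1 matures were detected and varied little on this scale. Il1b read 6.32, 6.32, 6.35 and 6.56 on replicates 1 to 4 (mean 6.39 ± 0.11), and Il18 read 4.86, 4.91, 4.87 and 4.70 (mean 4.83 ± 0.09). Il1a, whose product also signals through the interleukin-1 receptor, averaged 4.11 ± 0.08 (SD, n = 4). All 3 SDs were smaller than that of Casp1. The antagonist gene Il1rn varied more, at 7.67, 7.71, 8.27 and 8.48, while the decoy receptor gene Il1r2 was on no array and Il33 on 2 arrays. Il18bp, which neutralizes interleukin-18, averaged 1.39 ± 0.15 (SD, n = 4).

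Of 13 other caspases, gasdermins and lytic death genes 11 were detected. The exceptions were the pore genes Gsdma and Gsdme, on no array. Ninj1, whose product ruptures the membrane of dying cells, read 4.50, 4.29, 5.15 and 5.30, higher on replicates 3 and 4.

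Of 10 priming genes 7 were detected. The lipopolysaccharide receptor gene Tlr4 read 0.86, 1.03, 0.55 and -0.24, and the NF-kB subunit gene Rela read 2.85, 2.73, 3.64 and 3.75. On replicate 4 Tlr4 was at its lowest and Rela at its highest. The signalling genes Irak4 (2 arrays) and Traf6 (3 arrays) and the transcription factor gene Irf8 (no array) did not meet the rule. On replicate 3 the Irf8 probe sits within the low-signal area.

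Of 11 ion flux genes 7 were detected, without Gja1, P2rx1, Panx2 and Trpm2. The cation channel gene Trpv2 read 7.04, 7.05, 7.63 and 7.88 and the volume-regulated anion channel gene Lrrc8a averaged -0.87 ± 0.75 (SD, n = 4). All 7 measured lysosome damage genes were detected, with the galectin genes Lgals8 (2.25 ± 0.45) and Lgals3 (10.81 ± 0.42) the most variable. All 11 measured regulators were detected, and the ubiquitin ligase gene Trim31 (-1.66 ± 0.58) and the kinase gene Btk (1.29 ± 0.57) had the largest SDs among them.

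The detected genes whose profile came nearest to the median profile of the 5 were Adgrg6, Rgs10 and Clasp2. Their deviations differed from it by a root mean square of 0.03 log2 units over the 4 arrays. With 4 arrays such likeness is common, and 1059 of 7358 genes lay within 0.1. Among the 5 themselves, the closest pairs were Pycard with Nek7 (0.10) and Casp1 with Casp4 (0.11), and the farthest was Nlrp3 with Casp1 (0.58). With normexp this order changed. The closest pairs became Pycard with Casp4 (0.11), Pycard with Casp1 (0.12) and Nlrp3 with Nek7 (0.12), and the farthest Casp1 with Nek7 (0.52). Pycard with Nek7 was then at 0.45, Casp1 with Casp4 at 0.14 and Nlrp3 with Casp1 at 0.42.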

How the data were processed

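The deposited intensity of each spot on the one-colour (Cy3) arrays is linear and was made with Agilent Feature Extraction 11.0.1.1, per the submitters' processing notes. Per the file headers, its processed form was corrected for background and spatial trend inside each array, with no normalization across arrays. All 4 arrays share 1 slide and 1 scan.

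From the deposited intensity, log2 was taken, spots marked non-uniform or population outliers were left out, and spots of a probe were averaged. Each array's 75th percentile over the 45598 sample probes was then subtracted. Probes were named through their accession in RefSeq (GRCr8); 21109 matched. A gene took its brightest probe. The array headers name an older genome build, so no probe coordinates are given. The genes described and the role lists were chosen with earlier results of these data known. The pathway genes named are, per list, up to 4 that went against the list's majority in detection and the 2 with the largest SD; 1 gene so named is not reported here. With 1 group there is no test. Areas of low signal were windows of spots whose median fell below the other arrays by over 0.5 log2 units. Steps were tested on simulated data. Arrays give no read depth, and their number limits the precision. Python 3.11.15, numpy 2.4.6, pandas 2.3.3, R 4.3.3 and limma 3.58.1 were used.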

Additional observations from a re-analysis of the deposited data

Results flagged for a closer look

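In 3 of 38 sets of 4 values tested, 1 array stood apart from the other 3 by more than Dixon's 95% critical value, and chance alone gives this in about 1 in 20 sets. The level of Il1b was 6.56 on replicate 4, against 6.32 to 6.35 on the others. The level of Lgals3 was 11.44 on replicate 4, against 10.55 to 10.63 on the others. The Nlrp3 probe A_44_P281733 read -1.46 on replicate 2, against -1.14 to -1.07 on the others, with a ratio of 0.83 at the edge of the critical value. Replicate 4 was the dimmest array, and its part in the first 2 was not tested.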

How the results depend on the processing

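The count of 5 detected inflammasome genes was the same with the looser mark. It could not change at 3 of 4 arrays or without each replicate in turn. The 5 genes were well above background on all 4 arrays, and P2rx7 and Panx1 on none. Keeping outlier spots could not change it either, since no spot of these genes was marked as an outlier. Requiring every probe bears only on Nlrp3, the 1 gene with several probes, and all of these were well above background. The count of 51 detected pathway genes ranged from 47 (every probe required) to 56 (looser mark), and from 51 to 53 without each replicate in turn. The median SD of 0.22 ranged from 0.20 to 0.25 without each replicate in turn, and from 0.15 to 0.30 under quantile scaling, the percentile over detected probes, normexp and the mean over probes. With spike-in scaling it was 0.68, and the median deviation of the 5 genes was 0.43 on replicate 1, 0.59 on replicate 2 and -0.90 on replicate 4. With normexp that deviation was 0.29 on replicate 2 and -0.40 on replicate 4. The cause was not tested. Relative to the median gene, a measure chosen after seeing the data, Casp1 and Casp4 were above their own mean on replicates 1 and 2 and below it on replicates 3 and 4 under quantile scaling and normexp too; the other scalings leave that measure as it is. The brightest Nlrp3 probe kept its signs under quantile scaling, and with normexp its value on replicate 3 was 0.00. Setting the area of low signal on replicate 3 aside could not change the values for the 5 genes. None of their probes lies in it, and the percentile was not taken anew. The smaller area on replicate 4 was not set aside. The slide as a block was not run, because all arrays share 1 slide. No paired analysis was possible because there is 1 group.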
